A study of Bos taurus with 10 samples.

Results

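S100A12, CYBB, CCR1, LCP1, LAPTM5, ITGB2 and CD48 are genes that cattle and other mammals use mainly in white blood cells. They were chosen by their measured log2 difference between subcutaneous and visceral adipose tissue on these arrays, in which they ranked among the largest, and were then found by current gene symbol. That difference is given below as a description and not as evidence. The 7 genes were read from 9 printed cDNA elements, among 4307 named genes valued on every array. All 7 were valued on every array, so none was lost to a filter.

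Phagocytes are the white blood cells that engulf microbes, dying cells and debris, and the class includes neutrophils, monocytes and macrophages. They leave the blood by following chemokines through receptors such as CCR1 and by binding the vessel wall through integrins that contain ITGB2. Inside tissue they release calcium-binding alarm proteins such as S100A12, produce superoxide with the oxidase built around CYBB, and move with an actin cytoskeleton bundled by LCP1. Adipose tissue holds resident macrophages between its fat cells. The arrays measured RNA and not cell movement, so whether any of these cells had been recruited from blood was not measured. LCP1, LAPTM5, ITGB2 and CD48 are also used by lymphocytes, and these 4 genes mark leukocytes in general rather than phagocytes.

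The study profiled subcutaneous adipose tissue, liver, mesenteric adipose tissue, omental adipose tissue and mammary gland of cows (Bos taurus) at peak lactation. The labels give no breed, age, parity or diet, and do not say whether all tissues came from the same animal. Total RNA of each tissue was hybridised on 2 two-channel cDNA arrays, one with the tissue in Cy3 and one with the tissue in Cy5. The other channel always carried a standard mixed from tissues, so each value is a log2 ratio of tissue to that common standard. There was 1 RNA sample per tissue. The error after ± is therefore the distance from the mean of the 2 dye orientations to either one, which covers labelling and hybridisation but no difference between animals, and no p-value can be given. A gene is called past 2-fold where its mean difference was at least 1 log2 unit and had the same sign in both orientations. Mesenteric and omental tissue averaged together are called visceral. Ratios can be compared between tissues for one gene, but a ratio does not rank one gene's abundance against another's.

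Each array held 16416 spots, of which 15970 to 16245 had a value, and duplicate spots correlated at 0.832 to 0.916 across elements within an array. Arrays of one tissue in opposite dyes correlated at −0.789 to −0.669 as deposited. Arrays of different tissues in the same dye correlated at 0.243 to 0.793, so arrays of one tissue did not always agree more closely. Which dye was the numerator was not stated in the sources used here, and Cy5 over Cy3 was taken as likely because milk secretion genes then came out highest in mammary gland. Each of the 4 measured milk secretion genes was past 2-fold lower in subcutaneous tissue, liver and visceral tissue than in mammary gland. Transferrin (TF), a liver plasma protein, stood at 3.67 ± 1.24 in liver against −2.25 ± 1.89 to −1.01 ± 1.83 in the other tissues. APOA1, the other measured liver plasma protein gene, was not highest in liver. It stood at 1.86 ± 0.21 in subcutaneous tissue and 0.85 ± 0.37 in liver, against 0.11 to 0.33 in the remaining tissues. The subcutaneous minus visceral difference was 1.64 ± 0.14 for APOA1 and −1.20 ± 0.03 for TF. In the subcutaneous sample the label was not clearly borne out by fat cell markers. Hormone-sensitive lipase (LIPE) stood at 0.31 in subcutaneous tissue, against 0.13 in liver, 2.25 in mesenteric tissue, 2.18 in omental tissue and 0.31 in mammary gland. The median level of the 7 measured adipocyte markers was 0.11 in subcutaneous tissue, 0.34 in liver, 1.45 in mesenteric tissue, 1.65 in omental tissue and 0.08 in mammary gland. Gene by gene against liver, 2 of the 7 were past 2-fold higher in subcutaneous tissue (CAV1 and CAVIN1) and 1 was lower (RBP4). The median of these differences was 0.19. Against mammary gland 2 were higher and 1 lower, with a median of −0.18. The sample labelled subcutaneous adipose tissue is called subcutaneous below with those measurements in view.

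All 7 genes had their highest ratio in subcutaneous tissue, and omental tissue had the next highest mean for every one of them. Second place was not clear for S100A12, CCR1 and ITGB2. Their gaps from omental to the following tissue were 0.14, 0.33 and 0.27, below the summed errors of both levels, 0.19, 0.60 and 0.35. For ITGB2 both orientations still had the same sign, and its difference of omental from liver tissue was 0.27 ± 0.01. The step down from subcutaneous to omental tissue was 2.75 log2 units for CD48 and 5.26 for S100A12, with the other 5 genes between them. The whole range over the 4 tissues other than subcutaneous was smaller, from 0.73 for CYBB to 1.39 for LAPTM5. Within these bulk RNA samples, more cells of a type and more RNA per cell cannot be told apart.

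**Figure D1:**
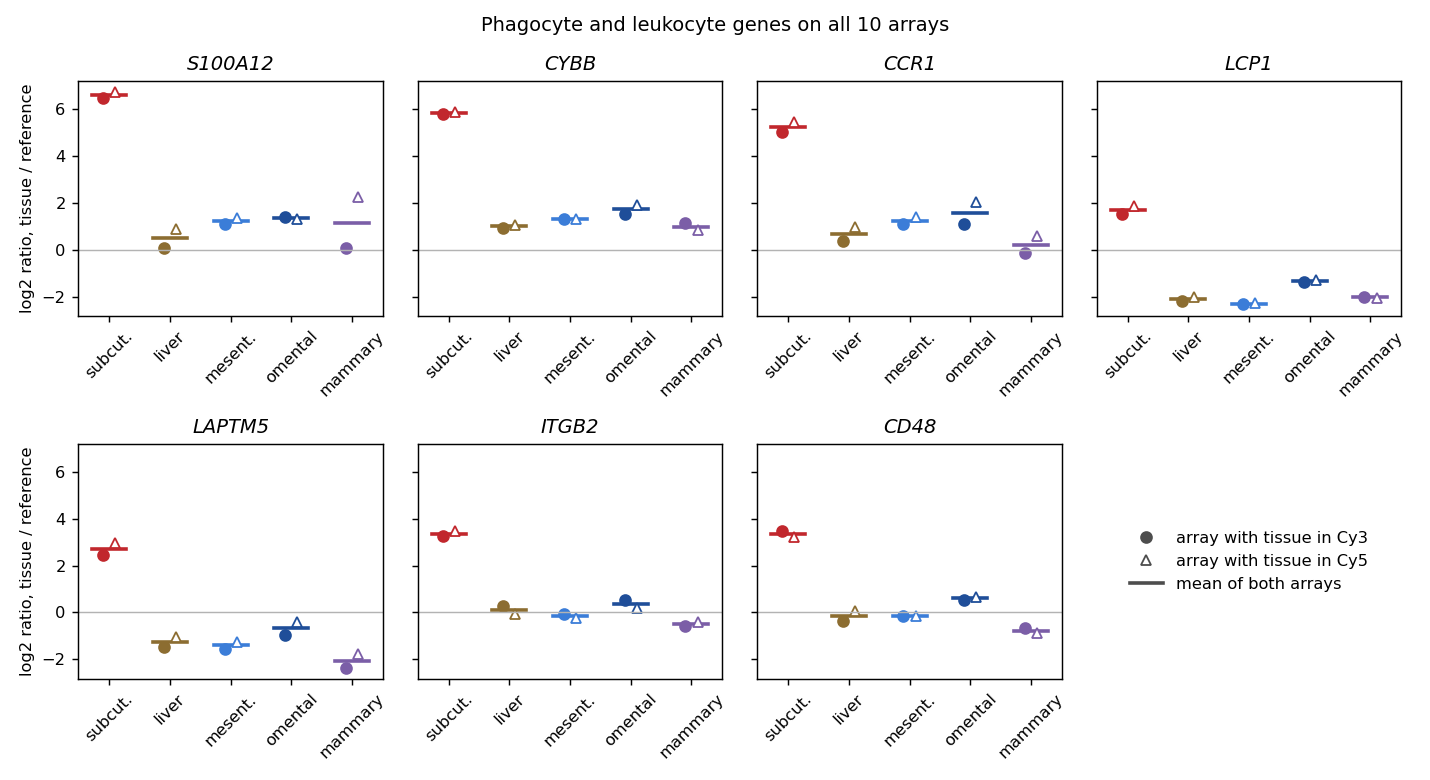
Log2 ratio to the common standard (vertical axis, log2 units) of the 7 genes in subcutaneous, liver, mesenteric, omental and mammary samples; filled circles are arrays with the tissue in Cy3, open triangles arrays with the tissue in Cy5, and bars their mean. For every gene both subcutaneous points lie above all 8 points of the other tissues, and the widest gap between the points of one tissue is that of S100A12 in mammary gland, at 0.06 and 2.24.

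S100A12, also called calgranulin C, is a calcium-binding protein that neutrophils and monocytes hold in their cytosol and release as an inflammatory signal to the receptor RAGE. Its log2 ratio was 6.50 on the Cy3 array and 6.76 on the Cy5 array of subcutaneous tissue. On the Cy3 and Cy5 arrays it was 0.08 and 0.89 in liver, 1.09 and 1.36 in mesenteric tissue, 1.42 and 1.31 in omental tissue, and 0.06 and 2.24 in mammary gland. The subcutaneous values thus stood clear of every other array, while the mammary pair spanned the values of the remaining tissues. The mammary Cy5 value came from duplicate spots at 0.92 and 3.56, which was the largest duplicate gap among all 180 spots of the 7 genes, so the mammary mean of 1.15 ± 1.09 is the least certain level of the 7 genes. Subcutaneous exceeded visceral tissue by 5.33 ± 0.09 log2 units, or 40.3-fold, which ranked 1 among the 4307 genes. It exceeded liver by 6.15 ± 0.27, or 70.8-fold.

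CYBB encodes the heme-binding catalytic subunit of the phagocyte NADPH oxidase, whose loss in people causes chronic granulomatous disease. Its log2 ratio on the Cy3 and Cy5 arrays of subcutaneous tissue was 5.80 and 5.89. In the other tissues, in the same dye order, it was 0.94 and 1.07 in liver, 1.32 and 1.30 in mesenteric tissue, 1.54 and 1.91 in omental tissue, and 1.14 and 0.85 in mammary gland. CYBB was the most even of the 7 genes over those 4 tissues. The difference of subcutaneous from visceral tissue was 4.32 ± 0.04, or 20.0-fold, rank 3 of all genes, and liver and mammary gland could not be ordered within their errors.

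CCR1 is a receptor for inflammatory CC chemokines such as CCL3 and CCL5 on monocytes and other leukocytes. Subcutaneous tissue had log2 ratios of 5.05 and 5.46. The ratios were 0.37 and 0.98 in liver, 1.11 and 1.38 in mesenteric tissue, 1.10 and 2.05 in omental tissue, and −0.15 and 0.58 in mammary gland. Mammary gland had the lowest mean, and the orientations of omental tissue were farther apart than those of the other tissues. Subcutaneous tissue exceeded visceral tissue by 3.84 ± 0.10 (14.3-fold, rank 8) and mammary gland by 5.04 ± 0.16 (32.8-fold).

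LAPTM5 is a lysosomal membrane protein of blood-forming cells that lowers the surface amount of antigen receptors. It had log2 ratios of 2.45 and 2.98 in subcutaneous tissue. The ratios were −1.49 and −1.05 in liver, −1.55 and −1.25 in mesenteric tissue, −0.94 and −0.41 in omental tissue, and −2.38 and −1.77 in mammary gland. Only subcutaneous tissue was above the array median, on which the ratios were centred. The excess over visceral tissue was 3.75 ± 0.06 (13.5-fold, rank 9), and the excess over mammary gland was 4.79 ± 0.04.

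LCP1, or L-plastin, bundles actin filaments in leukocytes and takes part in their adhesion and migration. Both of its elements were measured, and their mean log2 ratio was 1.53 and 1.89 in subcutaneous tissue. It was −2.21 and −2.04 in liver, −2.33 and −2.26 in mesenteric tissue, −1.38 and −1.30 in omental tissue, and −2.02 and −2.05 in mammary gland. Again subcutaneous tissue alone was above the array median, and mesenteric tissue was lowest. The difference of subcutaneous from visceral tissue was 3.53 ± 0.15 (11.5-fold, rank 10), and the elements taken singly gave 3.52 ± 0.27 and 3.54 ± 0.02.

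ITGB2, or CD18, is the beta chain shared by the leukocyte integrins LFA-1 and Mac-1, and its loss in cattle causes bovine leukocyte adhesion deficiency. Subcutaneous tissue had log2 ratios of 3.25 and 3.50. The ratios were 0.29 and −0.07 in liver, −0.05 and −0.25 in mesenteric tissue, 0.54 and 0.21 in omental tissue, and −0.57 and −0.41 in mammary gland. Outside subcutaneous tissue the values lay close to the array median. Subcutaneous exceeded visceral tissue by 3.26 ± 0.26 (9.59-fold, rank 15).

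CD48 is a lipid-anchored surface protein of the SLAM family on most leukocytes, and it binds CD244 on natural killer and other cells. Over both elements its log2 ratios were 3.50 and 3.21 in subcutaneous tissue. They were −0.37 and 0.04 in liver, −0.14 and −0.14 in mesenteric tissue, 0.53 and 0.67 in omental tissue, and −0.68 and −0.87 in mammary gland. Mammary gland was lowest on both arrays. The excess of subcutaneous over visceral tissue was 3.12 ± 0.18 (8.71-fold, rank 16), with 3.07 ± 0.01 and 3.17 ± 0.35 from the single elements.

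Against visceral tissue, where the genes were chosen, 7 of 7 were past 2-fold higher in subcutaneous tissue, beside 6.20% of all genes in that direction. The same subcutaneous arrays enter every comparison with subcutaneous tissue, so the counts that follow are not separate evidence. Against mesenteric tissue alone 7 of 7 were past 2-fold (6.66% of all genes), with a median difference of 4.01. Against omental tissue alone 7 of 7 were past 2-fold (5.97% of all genes), with a median of 3.39. Against liver the count was 7 of 7 (9.71% of all genes) with a median of 3.99, and against mammary gland it was 7 of 7 (10.4% of all genes) with a median of 4.79. The median over all genes lay between 0.01 and 0.08 in these 5 comparisons.

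**Figure D2:**
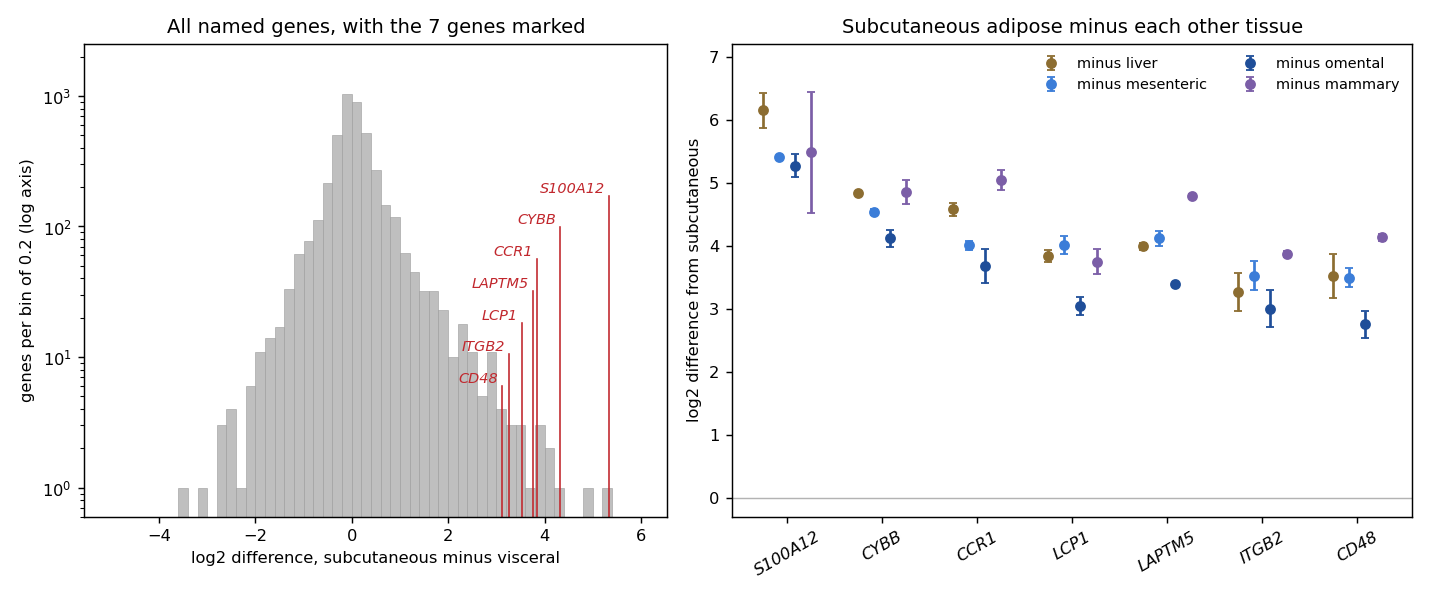
Left, number of named genes (log axis) by log2 difference of subcutaneous minus visceral tissue, with the 7 genes marked by red lines whose heights carry no value; right, log2 difference of subcutaneous tissue from each other tissue for each gene, with bars reaching the value of either dye orientation. The 7 genes lie between 3.12 and 5.33 on the left, and on the right the mean difference from omental tissue is the smallest of the 4 for every gene.

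The comparisons without subcutaneous tissue did not choose the genes and give their variation in the rest of the series. In mesenteric against omental tissue 0 of 7 genes were past 2-fold, and 1.04% of all genes were, in either direction. Yet all 7 means were below 0, and 5 of 7 were lower in mesenteric tissue in both dye orientations, beside 34.7% of all genes. With either dye orientation alone, and without the omental Cy5 array, whose channel labels disagree, 6 genes were below 0 and 1 above. LCP1 stood farthest down at −0.96 ± 0.00, or place 4281 of 4307, and its single elements gave −1.02 and −0.90. CD48 differed by −0.74 ± 0.07 (place 4252), LAPTM5 by −0.72 ± 0.12 (place 4249), ITGB2 by −0.53 ± 0.06 (place 4180) and CYBB by −0.42 ± 0.19. For CCR1, at −0.33 ± 0.34, and S100A12, at −0.14 ± 0.19, the dye orientations had opposite signs. By their means, the genes of general leukocyte use showed the wider gaps and S100A12 the narrowest, but neither held in both orientations. On the Cy5 arrays CCR1 at −0.67 and CYBB at −0.61 stood farther down than ITGB2 at −0.46. On the Cy3 arrays S100A12 at −0.33 stood farther down than CYBB at −0.22. The 6 measured pan-leukocyte markers had a median of −0.27 in the same comparison, with 0 of 6 past 2-fold.

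In visceral tissue against mammary gland 3 of 7 genes were past 2-fold higher, beside 6.29% of all genes. They were CCR1 at 1.19 ± 0.06 (2.29-fold), LAPTM5 at 1.03 ± 0.10 (2.05-fold) and CD48 at 1.01 ± 0.13 (2.01-fold), and the last pair lay at the threshold. Without the omental Cy5 array, whose channel labels disagree, LAPTM5 was 0.83 and CD48 0.81, and CCR1 alone was past 2-fold at 1.03. ITGB2 was 0.60 ± 0.21, CYBB 0.53 ± 0.23, LCP1 0.22 ± 0.05 and S100A12 0.15 ± 1.05. In all, 6 of 7 were higher in visceral tissue in both orientations, beside 41.1% of all genes, and S100A12 was the exception.

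Liver was within 2-fold of visceral tissue and of mammary gland for every one of these genes. Against visceral tissue 0 of 7 were past 2-fold, while 13.3% of all genes were, in either direction. The differences ran from −0.81 ± 0.36 for S100A12 and −0.73 ± 0.01 for CCR1 to −0.00 ± 0.04 for ITGB2, and 6 of 7 were lower in liver in both orientations, beside 41.6% of all genes. With mesenteric tissue alone in place of visceral tissue, the median of the 7 was −0.03, with 4 below 0 and 3 above. Against mammary gland 0 of 7 were past 2-fold, and 13.8% of all genes were. LAPTM5 was 0.80 ± 0.09, CD48 0.61 ± 0.30, ITGB2 0.60 ± 0.26 and CCR1 0.46 ± 0.06, and these 4 of 7 were higher in liver in both orientations, beside 37.3% of all genes. LCP1 and CYBB, at −0.09 ± 0.10 and 0.02 ± 0.21, were within their errors of no difference, and S100A12, at −0.67 ± 0.69, rested on the uncertain mammary value.

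**Figure D3:**
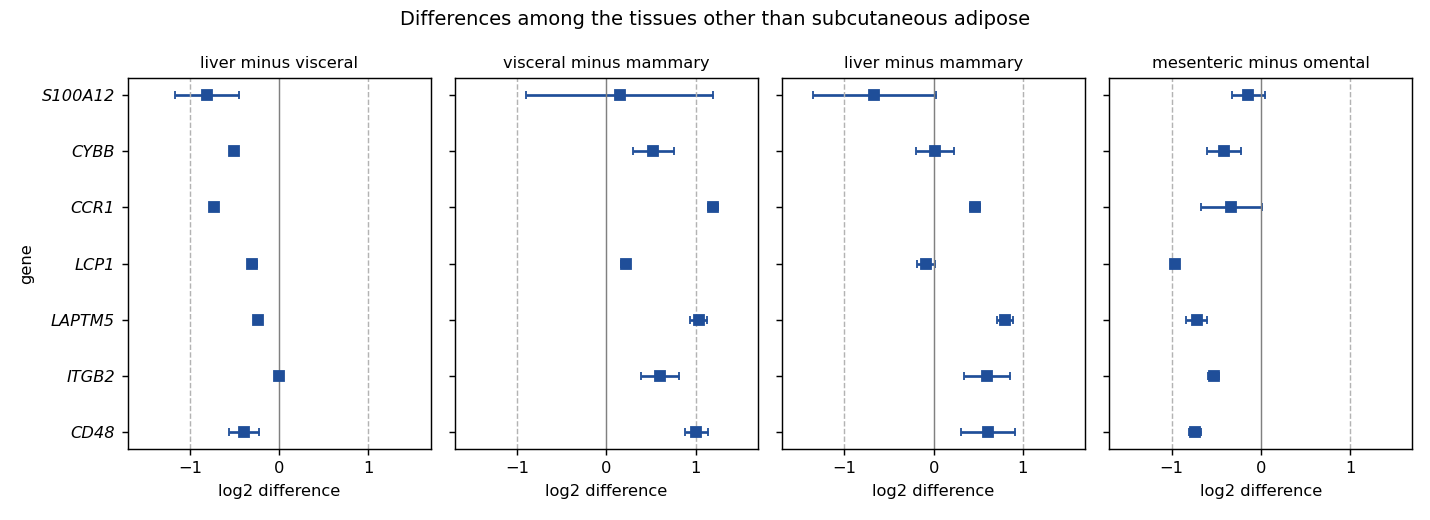
Log2 difference (horizontal axis) of each of the 7 genes in liver minus visceral, visceral minus mammary, liver minus mammary and mesenteric minus omental tissue; squares are means and bars reach the value of either dye orientation, with dashed lines at 2-fold. CCR1, LAPTM5 and CD48 reach the dashed line in visceral minus mammary, and all 7 squares lie below 0 in mesenteric minus omental.

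The 7 genes had like profiles over the 5 tissues once each was centred on its own mean. The root mean square distance between profiles, in log2 units, had a median of 0.43 over the 21 pairs, from 0.19 for ITGB2 with CD48 to 0.96 for S100A12 with ITGB2. LAPTM5 and CYBB lay closest to the mean of the 7, at 0.19 each, and S100A12 lay farthest, at 0.65, which follows its larger subcutaneous step. The median distance of all genes to that mean was 1.71. Since the genes were chosen for a shared subcutaneous excess, their likeness is a description.

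Of the genes outside the 7, the 10 nearest to their mean profile included several lysosomal and leukocyte genes. SLAMF7, a receptor of the same family as CD48, was nearest at 0.24, and its subcutaneous minus visceral difference was 3.44 ± 0.02. It was also among the 2 nearest genes of LCP1, LAPTM5, ITGB2 and CD48, at 0.29, 0.21, 0.12 and 0.16. MOCOS, the molybdenum cofactor sulfurase, followed at 0.41 with a difference of 3.09 ± 0.10, and so did LOC514170, for which the gene table lists the synonym CSTB, at 0.41 with 4.08 ± 0.14. Further genes act in lysosomes: the protease cathepsin S (CTSS, distance 0.47, difference 2.89 ± 0.13), PLD3 (0.50, 2.92 ± 0.14) and the acid nuclease DNASE2 (0.53, 2.85 ± 0.11). So do the tartrate-resistant acid phosphatase ACP5 (0.51, 2.99 ± 0.16) and CD68, a macrophage lysosomal glycoprotein (0.53, 3.34 ± 0.41). The others were the granule proteoglycan serglycin (SRGN, 0.51, 3.11 ± 0.15) and lactate dehydrogenase A (LDHA, 0.52, 3.39 ± 0.15).

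Taken singly, each gene other than ITGB2 had another of the 7 among its 2 nearest genes. For LAPTM5, ITGB2 and CD48 the nearest gene was SLAMF7, which is outside the 7. The nearest to S100A12 were CYBB at 0.46 and the galectin LGALS3 at 0.52, whose subcutaneous minus visceral difference was 4.09 ± 0.19. CYBB had CCR1 at 0.27 and LAPTM5 at 0.34, and CCR1 had LAPTM5 at 0.24 beside CYBB. LCP1 had ITGB2 at 0.28, LAPTM5 had CCR1 at 0.24, ITGB2 had CTSS at 0.19, and CD48 had ITGB2 at 0.19.

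Gene lists around the 7, chosen with earlier results of these data known, were read in subcutaneous minus visceral tissue, where 6.20% of all genes were past 2-fold higher and 153 of 4307 were past 2-fold lower. Since that difference chose the 7 genes, the family counts leave them out. In the phagocyte oxidase without CYBB, 2 of 4 measured genes were higher and 0 lower, with a median of 0.98. CYBA, the membrane partner of CYBB, differed by 1.88 ± 0.02, and the small GTPase RAC2, which activates the oxidase in blood cells, by 2.16 ± 0.06. RAC1, its widely used relative, was 0.07 ± 0.08, and the cytosolic subunit NCF4 was −0.07 ± 0.05. The membrane subunits and RAC2 thus stood above 2-fold and the cytosolic subunit that was measured did not.

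In the S100 family without S100A12, 1 of 5 measured genes was higher and 1 lower, with a median of −0.16. S100A11 differed by 1.25 ± 0.15 and the calcium carrier S100G by −1.50 ± 0.14. S100A2 was 0.07 ± 0.62, S100A14 −0.16 ± 0.00 and S100A10 −0.39 ± 0.10. S100A8 and S100A9, the usual companions of S100A12 in neutrophils, were not analysed here.

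Of the chemokine receptors only CCR1 and ACKR2, a scavenging receptor, were measured, and ACKR2 was 0.52 ± 0.09. Among 10 chemokines 4 were higher and 1 lower, with a median of 0.46. The monocyte attractant CCL2 differed by 1.80 ± 0.03, the neutrophil attractant CXCL8 by 1.72 ± 0.09, CXCL16 by 1.49 ± 0.01 and CCL26 by 1.38 ± 0.07, while CCL14, a ligand of CCR1, differed by −1.36 ± 0.42. CCL5, another CCR1 ligand, was 0.52 ± 0.11, and CCL4 was 0.41 ± 0.21.

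Among the integrins and their ligands without ITGB2, 2 of 7 measured genes were higher and 0 lower, with a median of 0.53. ICAM1, the endothelial and leukocyte ligand of ITGB2 integrins, differed by 2.38 ± 0.36, and ITGAD, an alpha chain that pairs with ITGB2, by 1.20 ± 0.05. In the SLAM and CD2 family both measured genes other than CD48 were higher, SLAMF7 as given above and the CD48 partner CD244 by 1.47 ± 0.08. Of 9 leukocyte actin regulators other than LCP1, 5 were higher and 0 lower, with a median of 1.26. They included COTL1 at 2.60 ± 0.17, RAC2, and NCKAP1L and CORO1A at 1.90 ± 0.04 and 1.90 ± 0.15. PLS3 and PLS1, the plastins of non-leukocyte cells, were −0.94 ± 0.00 and −0.07 ± 0.16, neither past 2-fold. LAPTM4A, the widely expressed relative of LAPTM5, was −0.01 ± 0.17.

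**Figure D4:**
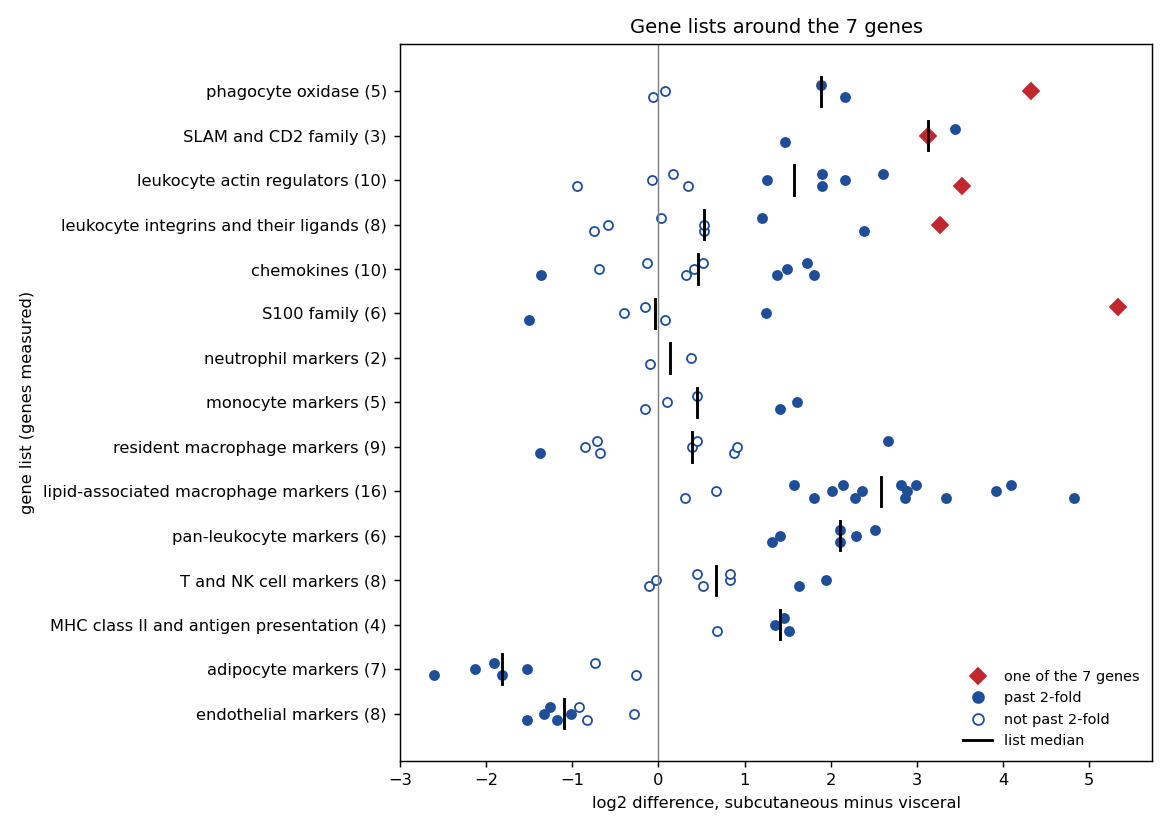
Log2 difference of subcutaneous minus visceral tissue (horizontal axis) for the measured genes of 15 lists, with the number measured in brackets; red diamonds are the 7 genes, filled circles other genes past 2-fold, open circles genes that are not, and black bars list medians. Of the 5 lists drawn that hold one of the 7 genes, CD48 lies at the median of its list and the other 4 genes lie farthest right in theirs; the lipid-associated macrophage and pan-leukocyte lists lie mostly past 2-fold, and the adipocyte and endothelial lists lie below 0.

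Cell type markers were read the same way, and their part in the excess of the 7 genes was not tested. All 6 measured pan-leukocyte markers were past 2-fold higher, with a median of 2.11, led by CD44 at 2.52 ± 0.03, BIN2 at 2.29 ± 0.16, CD52 at 2.11 ± 0.11 and AIF1 at 2.10 ± 0.03. Their levels ran from 0.78 to 2.70 in subcutaneous tissue, −3.54 to 1.29 in liver, −1.71 to 0.53 in mesenteric tissue, −1.76 to 0.67 in omental tissue and −2.28 to 0.16 in mammary gland. PTPN6 and IRF8 were 1.42 ± 0.06 and 1.31 ± 0.12.

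Of 30 neutrophil markers on the list only 2 were measured, and 0 were past 2-fold. The Fc receptor FCGR3A was 0.38 ± 0.04 and the antimicrobial peptide gene CATHL5 −0.10 ± 0.25, so neutrophil identity was hardly covered by measured markers. Of 5 monocyte markers 2 were higher, FCGR1A at 1.61 ± 0.05 and the lipopolysaccharide receptor CD14 at 1.41 ± 0.09. The level of CD14 was 2.61 ± 0.52 in subcutaneous tissue and 3.0 ± 0.50 in liver. The remaining monocyte markers CD163, PLAUR and THBS1 were 0.45 ± 0.18, 0.10 ± 0.33 and −0.15 ± 0.05.

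Macrophage lists differed from each other. Among 16 markers of lipid-associated macrophages, the macrophages of fat-laden tissue, 14 were higher and 0 lower, with a median of 2.58. Not all of these genes handle lipid, and proteases such as CTSS are among them. The 2 genes of this list not past 2-fold were FABP5 at 0.31 ± 0.21 and PLIN2 at 0.67 ± 0.14. The acid lipase LIPA was 4.82 ± 0.12, LGALS3 4.09 ± 0.19, osteopontin (SPP1) 3.91 ± 0.14 and CD68 3.34 ± 0.41. Among 9 resident macrophage markers 1 was higher and 1 lower, with a median of 0.39. The complement receptor VSIG4 was 2.66 ± 0.22, and the complement subunit C1QC was −1.38 ± 0.34.

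Lymphocyte markers were higher in part. Of 8 T and NK cell markers 2 were higher, CD3E at 1.95 ± 0.29 and CD3D at 1.63 ± 0.30, and the list median was 0.67. Both measured B and plasma cell genes, IGHM at 1.45 ± 0.47 and SDC1 at 1.0 ± 0.05, were past 2-fold, with SDC1 at the threshold. Against omental tissue alone SDC1 was 0.67 and not past 2-fold. SDC1 was highest in liver, at 0.93 against −0.33 in subcutaneous tissue. Of 4 antigen presentation genes 3 were past 2-fold, namely BOLA-DRB3 at 1.51 ± 0.08, CD74 at 1.46 ± 0.09 and CD80 at 1.36 ± 0.05, with BOLA-DMA at 0.68. Of 8 interferon and inflammation genes 2 were higher, the interleukin-1 antagonist IL1RN at 1.63 ± 0.30 and the inflammasome adaptor PYCARD at 1.07 ± 0.13. No mast cell or eosinophil marker was analysed here, and the platelet gene ITGA2B was −0.15 ± 0.31.

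Adipocyte and endothelial markers ran the other way, while fibroblast and epithelial markers were mostly not past 2-fold. Of 7 adipocyte markers 5 were lower in subcutaneous tissue and 0 higher, with a median of −1.82, led by RBP4 at −2.61 ± 0.13, the caveolar gene CAV1 at −2.13 ± 0.06, LIPE at −1.91 ± 0.40 and CAVIN1 at −1.82 ± 0.04. Of 8 endothelial markers 5 were lower and 0 higher, with a median of −1.10, among them CDH5 at −1.52 ± 0.22, TEK at −1.33 ± 0.07, LYVE1 at −1.26 ± 0.10 and KDR at −1.17 ± 0.05. Of 8 fibroblast and matrix markers 2 were lower, COL3A1 at −1.16 ± 0.35 and SPARC at −1.06 ± 0.12, vimentin (VIM) was higher at 1.10 ± 0.06, and 5 were not past 2-fold. Of 12 epithelial markers CDH1 was higher at 2.01 ± 0.02, and KRT19 and SPINT1 were lower at −1.62 ± 0.35 and −1.39 ± 0.04, with a list median of −0.10. Subcutaneous tissue thus stood apart from both visceral depots in the leukocyte, adipocyte and endothelial lists, and with 1 RNA sample of it, the depot, the animal and the sample cannot be told apart.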

How the data were processed

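The deposited values are log2 ratios of the 2 channels per spot, made by the authors from scans processed with GenePix 4.0, per the labels' design text; neither further normalization nor the log base or direction was stated. The base was taken as 2 because 94 values sat at a ceiling of 16.61, the log2 of 100000; these were taken as missing. Arrays with the tissue in Cy3 were negated, every array was centred on its median, duplicate spots were averaged, then elements of a gene, then both dye orientations. The arrays of one tissue carry 1 RNA sample and count as 1 sample; their number limits the precision. No test was run.

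Spot identifiers of the value table and of the platform annotation did not join at face value, where clones of one gene had a mean cosine of 0.0108 between profiles. The print layout was therefore rebuilt through 384-well plates, by choosing among 384 table and 3072 annotation layouts on one set of genes and reading the agreement on others. The best layout gave 0.434 on the held-out 622 pairs, against 0.0997 for the next different one, and 0.837 over the 185 pairs with strong profiles (SD of at least 0.5 log2 units in both). The search was tested on simulated data. Plates 1 to 20 were named, giving 5472 elements of 4366 genes, of which 5467 elements matched the RefSeq gene table by gene identifier. Values on all 10 arrays were held by 4307 genes. LAPTM5 has a further clone outside these plates, not used here. Gene names thus rest on a reconstruction.

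Members and gene lists were chosen with earlier results of these data known. Named genes were the 7 members, the 10 genes nearest their mean profile, the 2 nearest each member, and from each list the genes past 2-fold in subcutaneous minus visceral tissue, at most 4 per direction, or all measured ones in lists of 6 or fewer. A few further genes (CCL5, CCL4, PLS1, PLS3, FABP5 and PLIN2) were named for their role after their values were seen. Sequences were not used here. For omental tissue labelled with Cy5, the description of channel 2 and its dye label disagree; the dye label was used. Python 3.11.15, numpy 2.4.6, pandas 2.3.3 and matplotlib 3.10.9 were used.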

Additional observations from a re-analysis of the deposited data

How the results depend on the processing

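All 7 genes were past 2-fold higher in subcutaneous tissue in each of the 5 subcutaneous comparisons, and highest there of all tissues, under every alternative run: no centring, quantile normalisation, each dye orientation alone, without the omental Cy5 array, ceiling values kept, median over elements, element with the smallest dye gap, first duplicate spot only, and either visceral depot alone. The direction itself rests on the ratio being Cy5 over Cy3, and with all arrays turned the median difference of subcutaneous from visceral tissue was −3.75. Smaller counts moved. In visceral minus mammary, 1 gene in place of 3 was past 2-fold without centring, after quantile normalisation, without omental replicate 2 and with mesenteric tissue alone. In mesenteric minus omental, 3 genes in place of 0 were past 2-fold without centring. In liver minus visceral, 1 gene in place of 0 was past 2-fold after quantile normalisation and with the first duplicate spot only, and 0 to 1 with a single dye orientation. In liver minus mammary the count with a single orientation was also 0 to 1. The cause was not tested. The order of all 5 tissues was the same as with both orientations for 4 of 7 genes on the Cy3 arrays and for 4 of 7 on the Cy5 arrays. Without centring, the median of all genes in subcutaneous minus visceral was 0.64 and 891 genes in place of 420 were past 2-fold, 95.7% of them higher in place of 63.6%, and the median of the 7 genes lay 3.74 above that of all genes. All-gene counts without centring were also 1351 in place of 457 against mesenteric tissue, 650 in place of 392 against omental, 1532 in place of 754 against liver, 1019 in place of 595 against mammary gland, and 76 in place of 45 in mesenteric minus omental, where a single orientation gave 80 or 94 and leaving out omental replicate 2 gave 79. No paired analysis was possible because the labels give no replicate numbers and there was 1 RNA sample per tissue. A search of promoter motifs was not run.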

Other observations

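In mesenteric minus omental tissue 1 of 10 measured chemokines was past 2-fold higher, 1 was lower and 8 were not past 2-fold, beside 1.04% of all genes in either direction. The 3 named here were chosen after their values were seen. CCL21, which guides lymphocytes and dendritic cells, was 1.41 ± 0.41 log2 units higher in mesenteric than in omental tissue, at levels of 1.89 and 0.48. CXCL14 was lower in mesenteric tissue by −2.62 ± 2.08, an error nearly as large as the difference. CCL2, just short of 2-fold, was −0.98 ± 0.03, with levels of −0.53 in mesenteric and 0.45 in omental tissue, the same direction as the means of the 7 genes. Its level was 1.76 in subcutaneous tissue, −1.14 in liver and −0.66 in mammary gland, so omental tissue was second for this chemokine as well.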
